A study of Rattus norvegicus with 72 samples.

Results

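Transcript levels were compared between 2 brain regions at ZT9, that is, 9 h after lights on. The regions were the dorsal vagal complex, called DVC below, and the amygdala's central nucleus (CeA). The comparison covered 27 of the 72 samples of the series, 15 from the DVC and 12 from the CeA, and all 145 genes measured. Of the animals killed at ZT9, 12 gave both regions and 3 gave the DVC alone, and a sample belonged to the comparison when its label named ZT9. All animals were untreated male Sprague Dawley rats that had received a calorie-restricted, alcohol-free Lieber DeCarli liquid diet in which maltose-dextrin takes the place of alcohol, in amounts matched to the intake of alcohol-fed rats, so no group stands for rats fed freely. A sample was the bilateral punch of 1 region of 1 animal, with no pooling between animals. The exact age of the rats is not given in the sources used here.

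The DVC is a brainstem region that holds the nucleus tractus solitarius, the area postrema and the dorsal motor nucleus of the vagus. It receives visceral sensory input, sends parasympathetic output, and contains noradrenergic neurons. The CeA is a forebrain nucleus made up mostly of GABAergic neurons of a striatal kind, and it shapes autonomic and emotional responses. Both regions signal mainly through glutamate and GABA receptors, whose subunits set where a channel sits, how fast it opens and closes and which drugs act on it.

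Each measurement is a C_T, the cycle at which a gene's amplified product crosses a detection threshold, and a lower C_T means higher expression. The authors quantile-normalized the C_T values, which gives every sample the same distribution, running from 11.4 for the strongest gene of a sample to 27.1 for the weakest one. All levels below are these normalized C_T values in cycles. A difference is the CeA value minus the DVC value, so a positive number means higher expression in the DVC, and 1 cycle stands for about 2-fold if product doubles in each cycle. Levels of 2 genes cannot be compared, because each assay has its own efficiency.

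In qRT-PCR a gene is read through its primer pair. The primers of 6 genes with large differences in level or detection between the regions at ZT9 are printed here as the study designed them (5′ to 3′). They define which transcript each value below stands for. Slc6a2 was detected in the DVC alone and its level was not tested. Gabrq and Oprm1 were higher in the DVC, and the last 3 genes were higher in the CeA, with overlapping ranges for Gabrd.
Slc6a2 forward: ctgtcctgttcttcctgatgc
Slc6a2 reverse: gtgatgactgcctccatgc
Gabrq forward: catatgatgtccgactgagacc
Gabrq reverse: gatagatattgacacaggcacagg
Oprm1 forward: acgtctgcaactggatcctc
Oprm1 reverse: aacgtgagggtgcaatctatg
Ptk2b forward: caatctgctggctcctaagc
Ptk2b reverse: taggagagctggcacacaga
Rgs14 forward: cctggtgggcaaagaaca
Rgs14 reverse: ccagtcgcacttcctggt
Gabrd forward: ggacgagcaggagtgcat
Gabrd reverse: gctcctggttttctgaccaa

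By their gene IDs, RefSeq places these genes on the GRCr8 assembly at chr19:30183289-30228292 for Slc6a2, chrX:155737838-155755225 for Gabrq and chr1:45565371-45818722 for Oprm1. Ptk2b lies at chr15:44536275-44656754, Rgs14 at chr17:9254112-9268233 and Gabrd at chr5:171240813-171252709.

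Some samples stood apart. DVC samples lacked between 0 and 6 genes and CeA samples between 1 and 9, except CeA replicate 10, which lacked 74, including all 72 genes of one of the 2 sets of assays (set 1). In the animal numbered replicate 12, the region difference lay outside the range of the other animals for 59.4% of the genes with at least 6 pairs, against 7.25% to 27.9% in the other 11 animals. Before normalization the median C_T of the CeA sample was the higher one in 11 of the 12 animals, and the median difference over genes was 1.44 cycles. After normalization it was 0.14. Normalized values therefore compare a gene with the other genes of its sample, and they do not show whether total RNA differed between the regions. In punched tissue, fewer cells of a type and less RNA per cell cannot be told apart.

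At ZT9, 72 of 143 genes differed between the regions (50.3% of the genes tested, limma with the animal as a block, Benjamini-Hochberg adjusted p of at most 0.05). Of these, 44 were higher in the DVC (30.8%) and 28 were higher in the CeA (19.6%). The other 2 genes, Slc6a2 and Agtr2, had too few CeA values to be tested. Differences of at least 1 cycle were found for 37 of the called genes, 23 higher in the DVC and 14 higher in the CeA, and differences of at least 2 cycles for 11. The direction was the same in every animal for 34 of the 72. For 16 genes (11.2% of those tested) the range of the DVC samples did not overlap that of the CeA samples at all. They included Gabrq, Scn4b, Snx10, Oprm1, Aldh1a1, Jun, Wars and Hcn2 on the DVC side, and Ptk2b, Rgs14, Itpr1, Grin1 and Plcb1 on the CeA side. When each sample was centred on its median in place of quantile normalization, 80 genes were called, 39 higher in the DVC and 41 higher in the CeA. Without any normalization, 95.5% of 111 calls were higher in the DVC. The balance between the directions thus depended on the scaling, while 65 of the 72 calls were kept under median centring. Without CeA replicate 10, 67 of the 72 calls were kept and none was added. The 5 lost were Gabrb1, Crebbp, Cav2, Mbd1 and Dnmt2, whose adjusted p rose to between 0.0526 and 0.0858 with the direction unchanged, and no difference moved by more than 0.29 cycles. Without replicate 12, all 72 calls were kept and 88 genes were called in all.

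**Figure D1:**
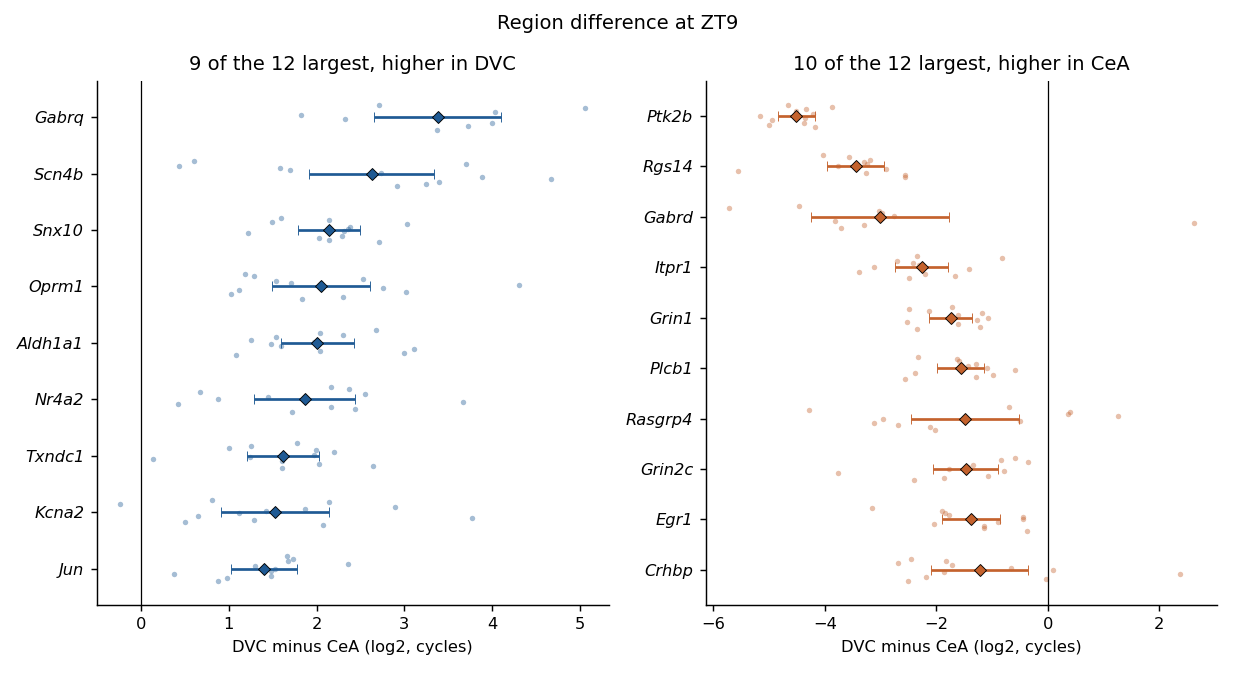
Genes among the 12 largest differences in each direction (9 higher in the DVC and 10 higher in the CeA are plotted) of called genes with at least 6 pairs, as DVC minus CeA on the log2 scale (cycles). Small points are single animals, diamonds the limma estimates and bars their 95% confidence intervals; Gabrq leads at 3.38 cycles in the DVC and Ptk2b at -4.51 in the CeA, and the points farthest beyond 0 for Gabrd and Crhbp belong to replicate 12.

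The noradrenaline transporter Slc6a2, which marks noradrenergic neurons, was detected in all 15 DVC samples and in 0 of the 11 CeA samples in which its assay ran, which allows a share of up to 27.3% of CeA samples (exact 95% interval 0 to 28.5%). Its DVC values ran from 20.6 to 23.1 with a median of 21.6. It was detected in the DVC alone in 11 of 11 animals (exact McNemar test, p = 0.000977, adjusted p = 0.142). The angiotensin receptor Agtr2 was detected in 15 of 15 DVC samples, between 23.8 and 26.2, and in 1 of 11 CeA samples, at 27.1. Detection in the DVC alone occurred in 10 animals and in the CeA alone in 0 (exact McNemar test, p = 0.00195, adjusted p = 0.142). Slc6a12, a betaine and GABA transporter, was detected in 15 of 15 DVC samples and 4 of 12 CeA samples (exact McNemar test, p = 0.00781, adjusted p = 0.378). Fosl1, a Fos-family transcription factor, was detected in 13 of 15 and 4 of 11. Dctn1, a subunit of the dynactin motor complex, went the other way, with 6 of 15 DVC samples and 11 of 12 CeA samples. No gene passed adjustment over the 145 genes in the exact McNemar test, and 5 did at an unadjusted p of 0.05. The smallest p that 11 pairs allow is 0.000977, so this test had little room, and Fisher's exact test without the pairing called 3 genes, Slc6a2, Agtr2 and Slc6a12.

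Over all genes tested, 50.3% were called, 30.8% higher in the DVC and 19.6% higher in the CeA. The counts of each group below stand against these shares, and no group was tested as a set. Among GABA-A receptor subunits, 4 of 9 were higher in the DVC, 3 were higher in the CeA and 2 were not called, with a median difference of 0.35 cycles against 0.14 over all genes tested. This median is the value of Gabrr2, which had 4 pairs and was not called. It turned to -0.19 without replicate 12, to -0.09 under median centring and to -0.54 when each set of assays was centred on its own median level. Gabrq, which encodes the theta subunit, had the largest difference toward the DVC. It was detected in 15 of 15 DVC samples at 21.2 to 22.5 (median 21.97) and in 8 of 12 CeA samples at 23.3 to 27.1 (median 25.2). The ranges did not overlap, and the difference was 3.38 ± 0.33 cycles (SE, 8 pairs, limma adjusted p = 5.63e-06), a 10.4-fold difference among the animals in which both regions gave a value.

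The alpha3 subunit Gabra3 was higher in the DVC by 0.88 ± 0.21 cycles (SE) in 12 of 12 animals. Gabrg3 (gamma3) differed by 0.65 ± 0.19, but its call was lost without the animal block and under median centring, and it turned to -0.03 when each set of assays was centred on its own median level. On the CeA side, Gabrd encodes the delta subunit of receptors outside the synapse that carry tonic inhibition. Its values were 20.4 to 27.1 (median 24.8) in 13 DVC samples and 20.3 to 23.4 (median 21.7) in 12 CeA samples. Gabrd was higher in the CeA in 9 of 10 animals, with a difference of -3.01 ± 0.58 cycles (SE, limma adjusted p = 0.000637). The exception was replicate 12, whose DVC sample gave 20.4, and without it the difference was -3.64. The gamma1 subunit Gabrg1 was higher in the CeA in 12 of 12 animals by a smaller amount, -0.68 ± 0.17, and the beta1 subunit Gabrb1 in 11 of 12 by -0.41 ± 0.14. Gabra5 and Gabrr2 were not called. The interval for Gabra5 was -0.50 to 0.27 cycles, whereas that for Gabrr2, with 4 pairs, was -2.66 to 3.37.

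**Figure D2:**
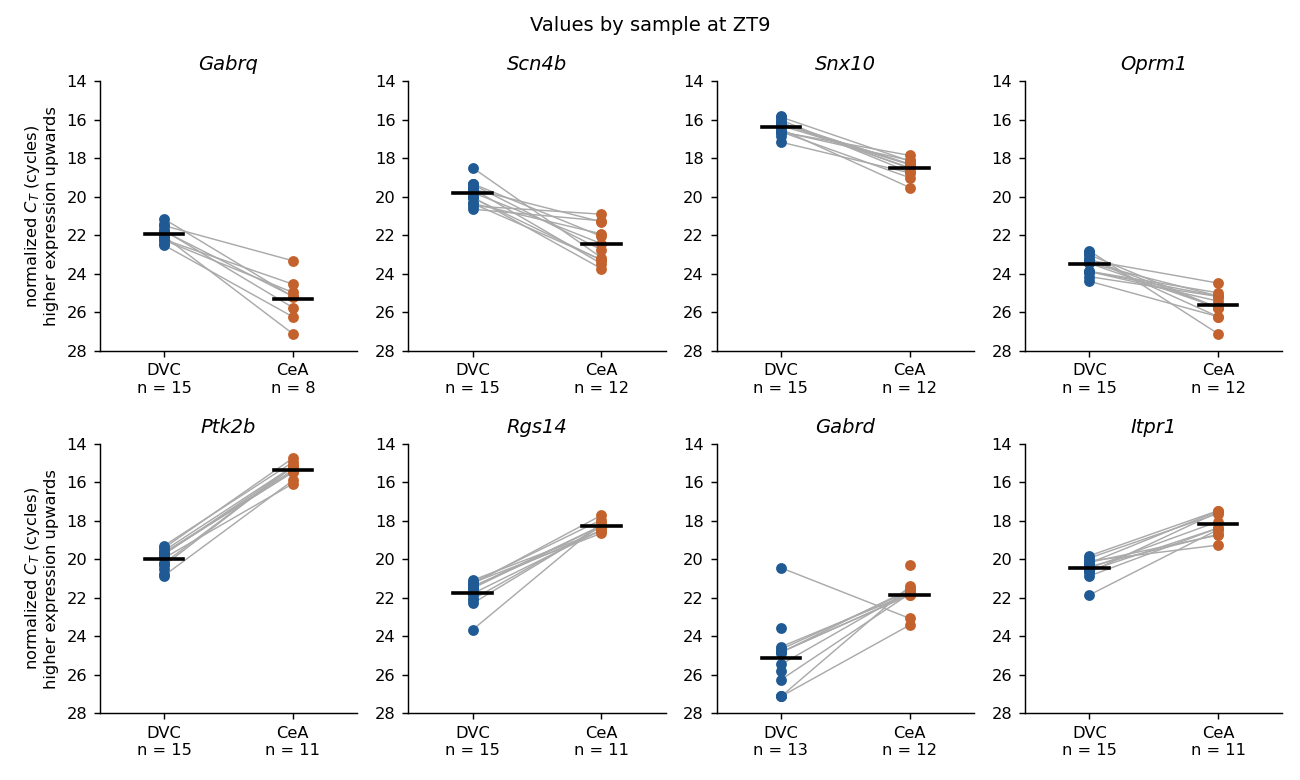
Normalized C_T in cycles by sample for 4 genes higher in the DVC (top) and 4 higher in the CeA (bottom), on an inverted axis so that higher expression points upwards. Grey lines join the regions of 1 animal and black bars are means; Ptk2b falls between 19.3 and 20.8 in the DVC and between 14.7 and 16.1 in the CeA, and 1 DVC sample of Gabrd at 20.4 goes against its group.

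Of 4 genes that make and move GABA, 1 was higher in the DVC and 3 were not called. Gad1, which encodes a GABA-synthesizing enzyme, had a DVC median of 17.97, a CeA median of 17.8 and a difference of 0.04 cycles (95% interval -0.35 to 0.43). The vesicular transporter Slc32a1 differed by -0.49 (95% interval -0.96 to -0.01, adjusted p = 0.0784). Both genes served here as GABAergic markers, and neither was called. Gad1 passed as higher in the CeA when each set of assays was centred on its own median level, at -0.47. Slc6a12 was higher in the DVC by 1.71 ± 0.36 cycles in the 4 animals that gave a CeA value (SE, limma adjusted p = 0.00524), but the smallest exact permutation p that 4 pairs allow is 0.125.

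Of the 11 genes for glutamate receptors and their scaffold, 5 were higher in the CeA, 3 were higher in the DVC and 3 were not called. Over all genes tested, 19.6% were higher in the CeA and 30.8% in the DVC. The median difference was -0.61 cycles, against 0.14 over all genes tested. Grin1 encodes the obligatory NMDA receptor subunit. It lay between 18.7 and 19.9 in the DVC (median 19.0) and between 16.8 and 18.02 in the CeA (median 17.4), without overlap, and differed by -1.75 ± 0.18 cycles (SE, 11 pairs, limma adjusted p = 1.93e-06). Its partners split by direction. Grin2c was higher in the CeA (-1.47 ± 0.27), whereas Grin2a (0.91 ± 0.17), Grin2d (0.68 ± 0.18) and Grin3a (1.05 ± 0.19) were higher in the DVC. Grin2a was higher in the DVC in 12 of 12 animals, and Grin2d and Grin3a in 11 of 12. Grin2b, at -0.61 (95% interval -1.20 to -0.03), was not called (adjusted p = 0.0712).

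The AMPA receptor subunits Gria2 and Gria3 were higher in the CeA in every animal measured, 11 and 10, by -0.82 ± 0.20 and -1.18 ± 0.26 cycles (SE). Grm5, a metabotropic receptor coupled to phospholipase C, was higher in the CeA in 11 of 12 animals by -0.82 ± 0.21. The kainate receptor subunit Grik3 and the scaffold gene Homer2 were not called, at 0.11 and -0.49. The calls of Gria2, Grin2a and Grin2d were lost when each set of assays was centred on its median level, with the direction unchanged.

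**Figure D3:**
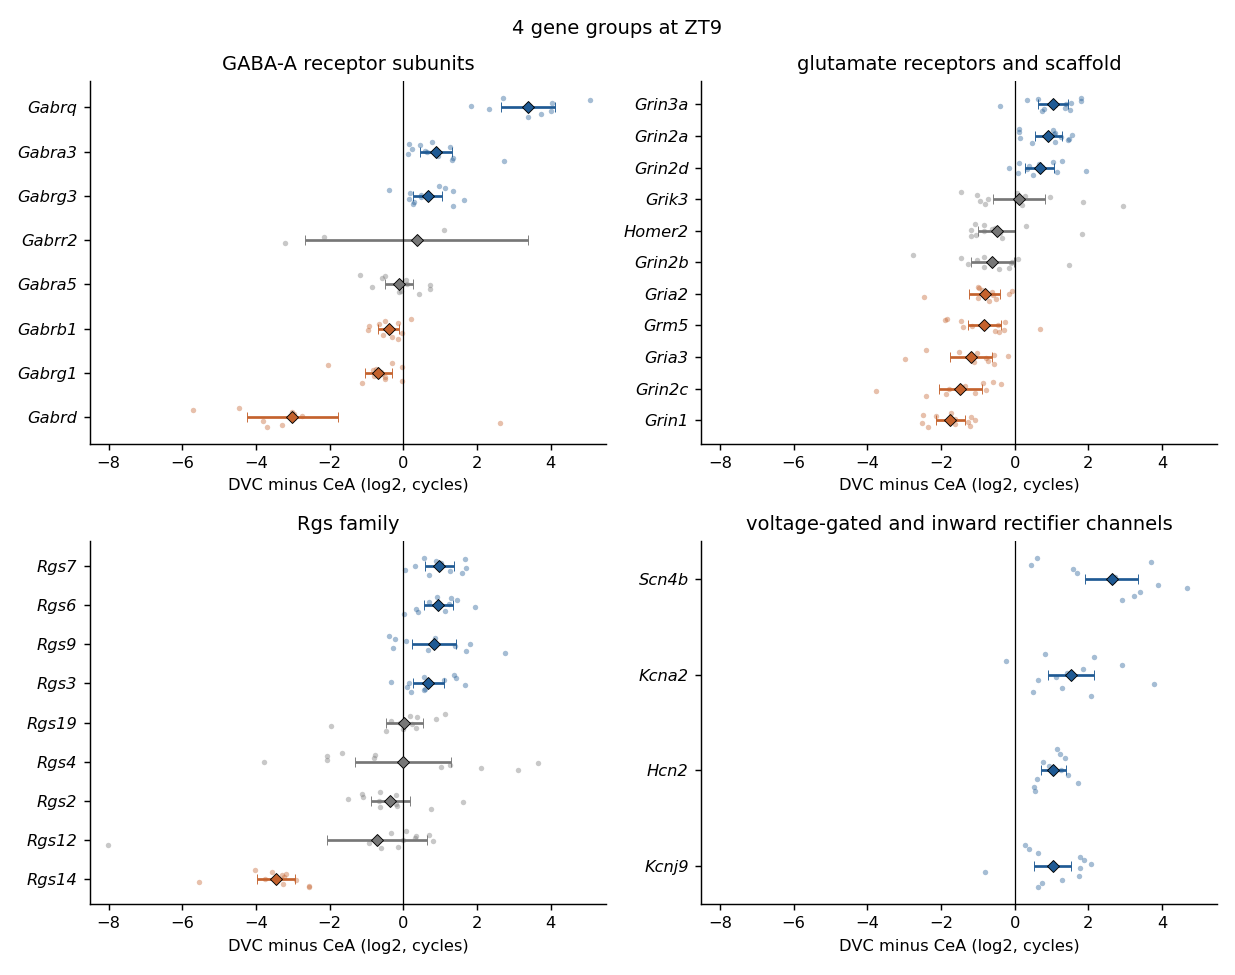
Region differences in 4 gene groups as DVC minus CeA on the log2 scale (cycles), with single animals as small points, limma estimates as diamonds and 95% confidence intervals as bars. Blue marks genes higher in the DVC, orange genes higher in the CeA and grey genes not called; each of the receptor groups holds genes on both sides of 0, the 4 channels plotted lie on the DVC side, and Rgs4 spreads from -3.77 to 3.64.

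Of the 5 voltage-gated and inward rectifier channel genes, 4 were higher in the DVC, 0 were higher in the CeA, and 1 was not called, with a median difference of 1.05 cycles. Scn4b, a sodium channel beta subunit, ran from 18.5 to 20.7 (median 19.8) in the DVC and from 20.9 to 23.7 (median 22.6) in the CeA. It was higher in the DVC in 12 of 12 animals, by 2.63 ± 0.34 cycles (SE, limma adjusted p = 1.10e-05), or 6.17-fold. The potassium channel Kcna2 differed by 1.52 ± 0.29, the pacemaker channel Hcn2 by 1.05 ± 0.15 and the G protein-gated channel Kcnj9 by 1.03 ± 0.24. Hcn2 was the tightest of these, with 15.9 to 16.9 in the DVC and 17.04 to 18.2 in the CeA.

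Among 12 genes for peptide, monoamine, purine and lipid signals and their receptors, 1 of the 11 tested was higher in the DVC, 2 were higher in the CeA and 8 were not called. The 1 was the mu opioid receptor Oprm1. Its values were 22.8 to 24.4 (median 23.5) in the DVC and 24.5 to 27.1 (median 25.6) in the CeA, and every DVC sample lay below every CeA sample. The difference was 2.05 ± 0.26 cycles (SE, 12 pairs, limma adjusted p = 1.10e-05), or 4.14-fold. Higher in the CeA were Mgll, the enzyme that breaks down the endocannabinoid 2-arachidonoylglycerol, in 12 of 12 animals (-1.14 ± 0.19), and Crhbp, the binding protein of corticotropin-releasing hormone (-1.23 ± 0.40). Crhbp was higher in the CeA in 9 of 11 animals, and its largest exception was replicate 12, without which the difference was -1.59. The call was lost in the exact permutation test (adjusted p = 0.0582). The receptors Crhr1 and Crhr2 were not called, at -0.12 and 0.41, with intervals of -0.94 to 0.70 and -0.55 to 1.37.

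In the renin-angiotensin group, 2 of 4 tested genes were higher in the DVC and the other 2 were not called. Ace, which produces angiotensin II, ran from 17.5 to 21.0 (median 19.8) in the DVC and from 19.6 to 22.5 (median 21.0) in the CeA. The ranges overlapped, and the difference was 1.30 ± 0.29 cycles in 10 of 11 animals (SE, limma adjusted p = 0.00193). Ren1 (renin) was called at 0.94 ± 0.36 (adjusted p = 0.0448), and this call was lost under median centring, in the exact permutation test and without any one of replicates 3, 5, 7, 14 and 15. Agtrap was not called, at 0.22. With Agtr2 counted by detection, the members measured included enzymes and 1 receptor.

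The Rgs proteins speed the shutdown of G protein signals, and their genes split. Rgs14 was higher in the CeA, Rgs3, Rgs6, Rgs7 and Rgs9 were higher in the DVC, and 4 were not called. Rgs14 lay between 21.1 and 23.7 (median 21.5) in the DVC and between 17.7 and 18.7 (median 18.3) in the CeA, the second largest difference toward the CeA. It amounted to -3.45 ± 0.24 cycles (SE, 11 pairs, limma adjusted p = 3.87e-08), or 10.9-fold. Rgs6 and Rgs7 were each higher in the DVC in 11 of 11 animals, by 0.94 ± 0.18 and 0.97 ± 0.18, and Rgs3 in 10 of 11 by 0.67 ± 0.20. Rgs9 was higher in 8 of 11 (0.83 ± 0.28), and its call was lost without replicate 9 or without replicate 14.

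Rgs4 averaged a difference of 0.00 ± 0.61 cycles, but single animals ran from -3.77 to 3.64. The labels number the animals. Those at ZT9 fall into lower numbers, up to S163, and higher numbers, from S208, with animals of the other times numbered between. At ZT9, 10 animals were lower-numbered, 7 of them with both regions, and 5 were higher-numbered, all with both regions. All differences of Rgs4 were below 0 in the 6 lower-numbered animals with both values and above 0 in the 5 higher-numbered ones. Rgs4 is among the strongest genes of many samples, where quantile normalization leaves few steps, so the sizes of its differences are coarse. Rgs12 was at -0.71 ± 0.63 and not called, with 1 DVC sample at 27.1 against a DVC median of 19.2.

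Of 15 genes for phospholipase C, IP3 receptors and protein kinase C, 5 were higher in the CeA, 1 was higher in the DVC and 9 were not called, and the median difference was -0.44 cycles (-0.86 when each set of assays was centred on its median level). Itpr1, the IP3 receptor that releases calcium from internal stores, lay between 19.8 and 21.9 (median 20.4) in the DVC and between 17.5 and 19.3 (median 18.4) in the CeA, without overlap. It differed by -2.26 ± 0.22 cycles (SE, 11 pairs, limma adjusted p = 9.54e-07). Plcb1, a phospholipase C that acts downstream of Gq-coupled receptors, differed by -1.56 ± 0.20, again without overlap. The assay named PKCe, for protein kinase C epsilon, differed by -0.61 ± 0.15, and it is named here after its values were seen.

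Ptk2b, a calcium-activated tyrosine kinase that couples to Ras and MAP kinase signalling, had the largest difference of all genes tested. It lay between 19.3 and 20.8 (median 19.9) in the DVC and between 14.7 and 16.1 (median 15.2) in the CeA. The gap between the groups exceeded the range within either of them, and the difference was -4.51 ± 0.15 cycles (SE, 11 of 11 animals, limma adjusted p = 3.90e-12), or 22.8-fold. The other genes of the Ras, MAP kinase and Pak group were divided. Of all 20, 4 were higher in each region and 12 were not called. Pak1, a kinase downstream of Rac, was higher in the DVC by 0.84 ± 0.16. Rasgrp4, a Ras activator best known from mast cells, was higher in the CeA in 8 of 11 animals by -1.49 ± 0.46, and among lower-numbered animals alone it was not called.

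In the transcription factor group, 3 of 13 genes were higher in each region. Jun, part of the AP-1 complex, lay between 16.7 and 17.7 (median 16.9) in the DVC and between 18.1 and 19.1 (median 18.4) in the CeA, a difference of 1.404 ± 0.18 cycles in 11 of 11 animals. Nr4a2, an orphan nuclear receptor of the immediate early gene kind, was higher in the DVC in 11 of 11 animals by 1.86 ± 0.27. Egr1, another immediate early gene, was higher in the CeA in 11 of 11 animals by -1.38 ± 0.24. Immediate early genes therefore did not share a direction. Fosl1, with 4 pairs, was at 1.44 ± 0.54 and not called.

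Of 8 genes for membrane trafficking and synaptic proteins, 5 were higher in the DVC, 2 were higher in the CeA and 1 was not called, with a median difference of 0.92 cycles (0.24 when each set of assays was centred on its median level). Snx10, an endosomal sorting nexin, lay between 15.8 and 17.2 (median 16.3) in the DVC and between 17.9 and 19.5 (median 18.4) in the CeA and differed by 2.14 ± 0.17 cycles (SE, 12 pairs, limma adjusted p = 4.88e-08). The synaptic adhesion gene Nrxn3 differed by 1.11 ± 0.21, and Mpdz and Rab27a by 1.07 and 0.76. Slc9a3r1 (RefSeq Nherf1), at -0.87 ± 0.24, and Cav2 (caveolin 2), at -0.40 ± 0.15, were higher in the CeA.

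Among 10 genes for metabolism, protein folding and housekeeping, 5 were higher in the DVC and 5 were not called, with a median difference of 0.65 cycles (0.12 under the same centring). Aldh1a1, which makes retinoic acid, lay between 15.4 and 17.8 (median 16.8) in the DVC and between 17.99 and 20.4 (median 19.2) in the CeA. It differed by 2.01 ± 0.19 cycles (SE, 12 pairs, limma adjusted p = 5.89e-07). The folding genes Txndc1 (RefSeq Tmx1) and Hyou1 differed by 1.62 ± 0.19 and 0.90 ± 0.19, and the tryptophanyl-tRNA synthetase Wars by 1.05 ± 0.14, each in 12 of 12 animals. Hprt, a common reference gene, was higher in the DVC by 1.02 ± 0.20 cycles in 10 of 11 animals. On this normalized scale, a value taken relative to Hprt would lie that much further toward the CeA than the values given here. With each set of assays centred on its median level, the difference of Hprt was 1.87, so the size of this shift depends on the scaling.

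The remaining groups held smaller differences. In the list of DNA methylation, repair and telomere genes, 4 of 6 were higher in the DVC, led by the telomere-binding protein Terf1 (1.22 ± 0.24). It was followed by Dnmt2 (RefSeq Trdmt1, 0.74), Mbd1 (0.68) and Dmap1 (0.55). Mbd1 and Dmap1 turned to -0.13 and just below 0 when each set of assays was centred on its median level, and neither passed the test then. The same centring took Terf1 to 0.45 and Dnmt2 to 0.02, and the group's median difference from 0.61 to -0.07. None of the 4 was among the calls that held under each of the 7 alternatives described below. Of 6 genes for G proteins, receptor kinases and arrestins, Adrbk1 (RefSeq Grk2) was higher in the CeA (-0.71 ± 0.20) and Arrb2 was higher in the DVC (0.38 ± 0.14). Of 5 genes for PI3 kinase, Akt and mTOR, Pik3r3 was higher in the DVC (1.07 ± 0.24) and Pdpk1 in the CeA (-0.77 ± 0.19), and Pdpk1 turned to 0.17 under the same centring. Of 7 phosphatase genes, Ppp5c was higher in the DVC (0.75 ± 0.16) and Ptpn1 in the CeA (-0.88 ± 0.17).

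The labels of the regions were set against markers of their cell types. The noradrenergic marker Slc6a2 was in the DVC alone, as described. The 6 genes taken as markers of striatal-type neurons did not move together. Rgs14 was higher in the CeA, Scn4b, Rgs9 and Gabrg3 were higher in the DVC, and Ngef and Rasgrp1 were not called, at -0.32 and -0.09, so as a list they did not mark the CeA. Of 4 genes taken here as astrocyte markers, Aldh1a1 was higher in the DVC and Gabrg1 was higher in the CeA. Clu and Ntrk2 were not called, at -0.08 and -0.28, so as a list the 4 did not mark either region. Of 4 markers of microglia and blood-derived cells, Rasgrp4 was higher in the CeA, and Plcg2, Ptgs1 and P2rx4 were not called, at 0.03, -0.27 and 0.42. Of 3 vascular and meningeal markers, Ace and Slc6a12 were higher in the DVC and Cav2 was higher in the CeA. The part of blood vessels or meninges in the differences of Ace and Slc6a12 was not tested.

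The 2 sets of assays behaved alike under the authors' normalization, with median differences of 0.13 cycles over 70 genes of set 1 and 0.19 over 73 genes of set 2. Non-normalized median C_T of set 1 minus that of set 2 averaged -0.14 (SD 0.50) in the 15 DVC samples and -0.72 (SD 0.28) in the 11 CeA samples with both sets. Centring each set of each sample on its median level moved set 1 genes toward the DVC by a median of 0.54 cycles and set 2 genes toward the CeA by 0.57. It left 53 of the 72 calls and turned the direction of 4 called genes. Centring each animal's differences on the median difference of each set left 66 calls and turned the direction of 0. Of the 72 calls, 47 held under each of 7 alternatives, namely no block, a random block, both ways of median centring of samples, quantile normalization without the samples that lacked a set, and without replicate 10 or 12. These were 30 genes higher in the DVC and 17 higher in the CeA, and they included all 24 genes with the 12 largest differences in each direction. Not among the 7 were the exact permutation test, which kept 68 of the 72 calls, and no normalization (49 kept). Quantile normalization per region (50 kept), lower-numbered animals alone (58) and higher-numbered animals alone (24) were also outside them. The 47 include Crhbp, Rgs9, Rasgrp4 and Slc6a12, whose limits in other runs are given above.

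**Figure D4:**
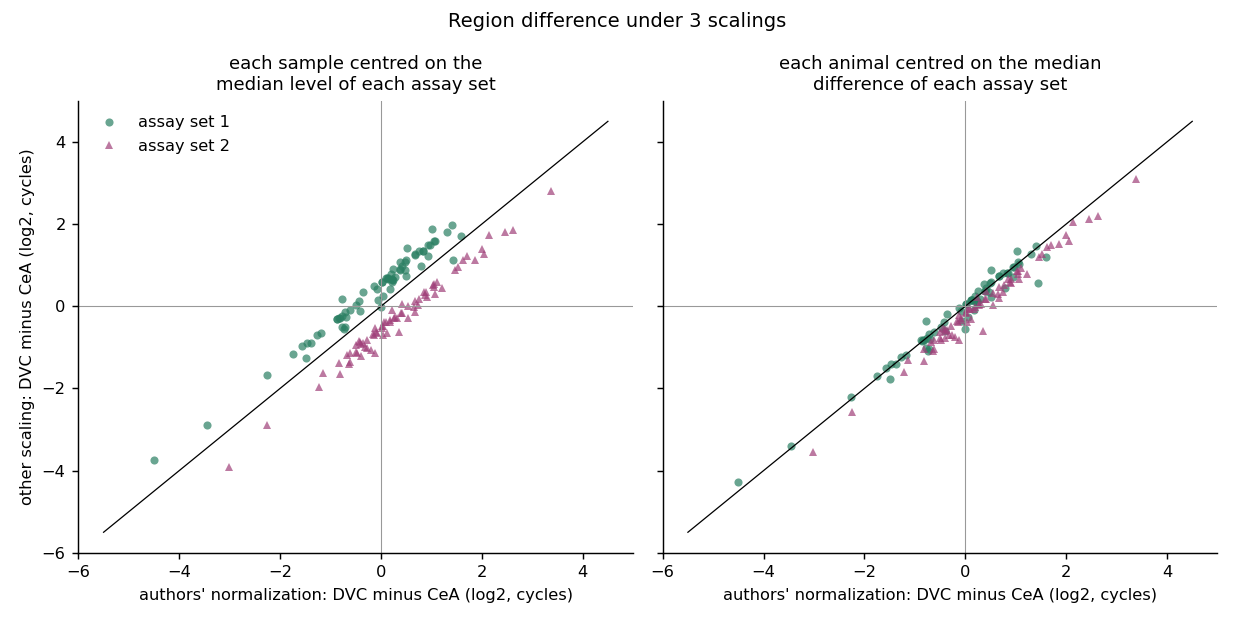
Region difference of each of the 143 genes tested under the authors' normalization (x axis) against 2 other scalings (y axes), all as DVC minus CeA on the log2 scale (cycles), with assay set 1 as circles, set 2 as triangles and the line of equality. Centring on median levels lifts set 1 and lowers set 2 (left), whereas centring on median differences leaves the sets together (right).

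The region difference at ZT9 was then set against that at ZT5 (13 animals with both regions) and ZT3 (7 animals), which are other animals. Of the 72 genes called at ZT9, 70 had the same direction at ZT5 and 70 at ZT3. At ZT5, 54 of the 72 were also called in that direction, at ZT3 60, and at both times 50 (percent called of all genes tested, 50.3% at ZT5 and 56.3% at ZT3). Ptk2b differed by -4.45 at ZT3, -4.56 at ZT5 and -4.51 at ZT9, Gabrq by 3.23, 2.95 and 3.38, and Rgs14 by -3.23, -2.91 and -3.45.

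The times were tested directly on the region difference of each animal, so that different animals were compared between times. For 2 genes (1.41% of those tested) the region difference at ZT9 was unlike that at ZT5 (limma, adjusted p of at most 0.05). Against ZT3 there were 0 genes (0%). At an unadjusted p of 0.05 the limma counts were 16 and 10 genes. Clu, the secreted chaperone clusterin that astrocytes make in large amounts, was higher in the CeA in 12 of 13 animals at ZT5, with a mean of -1.21 (SD 0.62). At ZT9 it was higher in the CeA in 4 of 12, with a mean of -0.08 (SD 0.81). The change was 1.14 ± 0.26 cycles (SE, limma adjusted p = 0.0171). Clu is among the strongest genes of each sample, where quantile normalization leaves few steps, and its 27 normalized values at ZT9 took 13 distinct values. Without normalization the change was 0.26 ± 0.43 (adjusted p = 0.739), and with each set of assays centred it was -0.22 (adjusted p = 0.590).

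Gabrg1 had a difference of 0.15 (SD 0.60) at ZT5, with 4 of 13 animals higher in the CeA, and of -0.68 (SD 0.53) at ZT9, with 12 of 12. The change was -0.83 ± 0.22 cycles (SE, limma adjusted p = 0.0416). It was called in 5 of the 12 runs that left out 1 ZT9 animal, with limma adjusted p between 0.0246 and 0.0921. Among the animals of all times numbered from S166, the change was -0.54 (limma adjusted p = 0.534). Pak1 (0.68, adjusted p = 0.0603) and Rgs4 (-2.07, adjusted p = 0.294) were among the next and did not pass. Against ZT3 the smallest p belonged to Adrbk1, Ntrk2, Agtrap, Sp1 and Egr1, with changes between -1.06 and 1.004 cycles and adjusted p of at least 0.444.

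**Figure D5:**
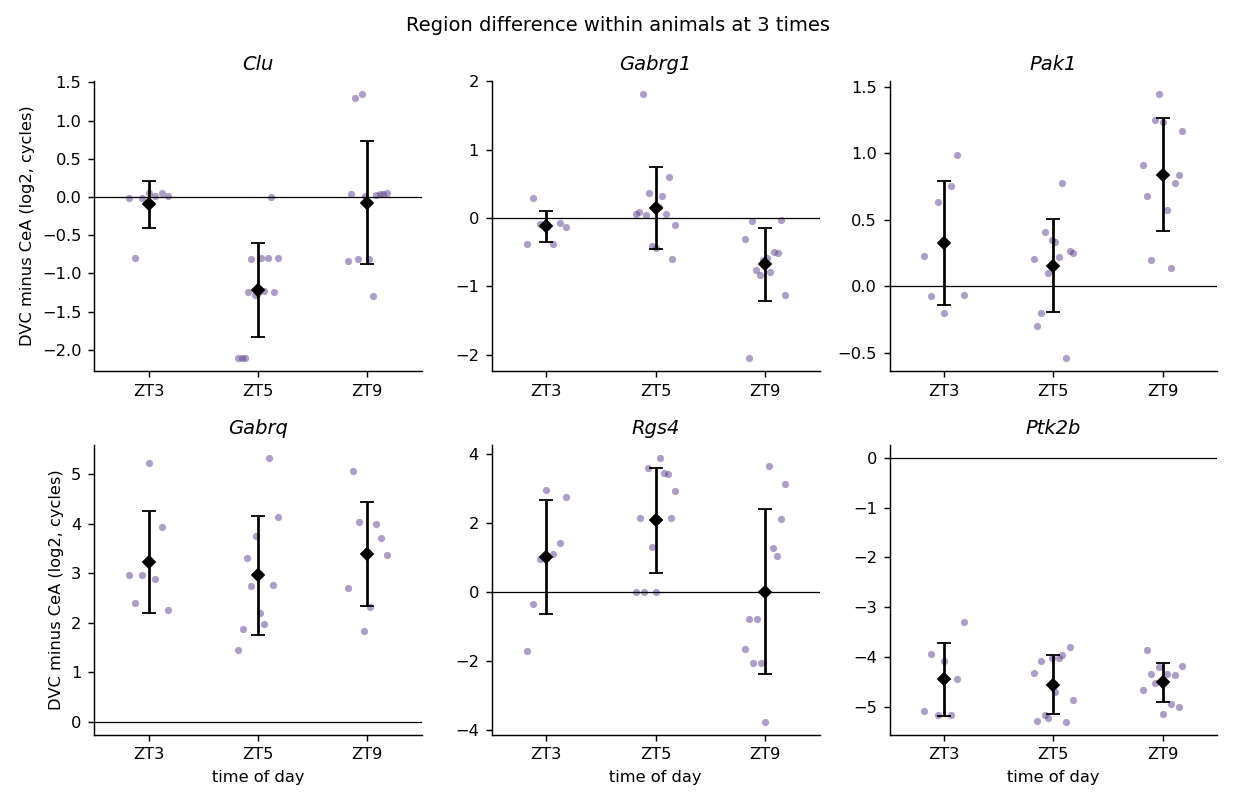
Region difference within animals at ZT3, ZT5 and ZT9 as DVC minus CeA on the log2 scale (cycles), with points for animals, diamonds for means and bars of 1 SD. Clu and Gabrg1 passed the test of ZT9 against ZT5, with changes of 1.14 and -0.83 cycles; Pak1 and Rgs4 did not, and the means of Gabrq lie between 2.95 and 3.38 and those of Ptk2b between -4.56 and -4.45.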

How the data were processed

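RNA from micropunched DVC and CeA tissue was measured by microfluidic qRT-PCR. The C_T values used came in 2 forms, both deposited by the authors on a log2 scale, the software's C_T with failed reactions left out and the same values after quantile normalization. Limma's quantile normalization of all 72 samples returned the deposited log2 values to within 4.99e-09 cycles. A further deposited table, of the authors' means and differences from ZT5, was not used. RNA was extracted with 1 of 2 kits, and which sample had which is not given.

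The main fit was limma 3.58.1 in R 4.3.3 on normalized C_T with region and animal as terms, for genes with at least 3 animals measured in both regions, with Benjamini-Hochberg adjustment over all genes. Pairing comes from the animal numbers in the labels. The regions of an animal, as deviations from region means, correlated by -0.40 to 0.41 with a median of 0.15. Time points were compared on within-animal differences. Detection was compared by exact McNemar tests, in which the assays that CeA replicate 10 lacks as a set were taken as not run. This differs from the design, which counted all 12 animals, and changed no call. On simulated data for 143 genes, the fit called 2 of 10 genes shifted by 0.5 cycles. It called 7 of 10 shifted by 1 cycle, 10 of 10 shifted by 2 cycles and 0 of 113 unshifted genes. How often the fit misses or wrongly calls genes in the measured data was not tested. Python 3.11.15 with scipy 1.17.1 was used for the other tests.

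Members, gene lists and tests were chosen with earlier results of these data known. Genes were named when they were among the 12 largest called differences in a direction with at least 6 pairs, in a marker list, in a pathway list of at most 12 genes or the 4 largest of a longer one, detected in under 6 samples of a region, among the 5 smallest p of a time test, or lost without replicate 10. Hprt and Nr4a2 were always named. Some genes and primers that this rule names are not reported here. Of 145 assays, 143 had a gene ID found in RefSeq's GRCr8 gene table, 128 under the same symbol, and 1 gene ID was given to 2 assays. The number of samples and failed reactions limit precision, and no counting error can be given for C_T.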

Additional observations from a re-analysis of the deposited data

Results flagged for a closer look

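The region difference of Clu changed by 1.14 cycles between ZT5 and ZT9 in a test of the difference between the times, and that of Gabrg1 changed by -0.83 cycles. Neither change passed in limma without the pairing of regions by animal (adjusted p = 0.184 and 0.290) or among animals numbered from S166 alone (adjusted p = 0.496 and 0.534).

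Among 9 groups of 4 to 10 values of the named genes, 2 held a sample far from the others, and chance marks about 1 group in 20. The lowest of the 8 DVC values of Gabrr2, a rho subunit of GABA receptors, was 19.8, against a DVC median of 24.8. It came from replicate 12, the animal that stood apart, and without it the difference of Gabrr2 moved from 0.35 to -1.42 cycles, neither of them called. The highest of the 6 DVC values of Dctn1 was 17.9, against a median of 17.2.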

How the results depend on the processing

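The share of genes called, 50.3% (72 genes), ran from 45.5% to 61.5% when 1 animal was left out in turn (26.6% to 37.1% higher in the DVC, 17.5% to 24.5% higher in the CeA). Without the replicate block 80 genes were called, 70 of them among the 72, and with a random block 85. A two-tailed Student's t-test of 15 against 12 samples, which the methods use between time points and not between regions, called 88 genes at an unadjusted threshold of 0.05 and 77 after adjustment, the exact permutation test 69, and the fit with failed reactions at the highest C_T 72. Without normalization 77.6% of the genes were called (74.1% higher in the DVC, 3.50% higher in the CeA), and with quantile normalization per region 76.2% (72.0% and 4.20%). Read relative to the median gene, 30.1% were higher in the CeA under either, against 19.6%. Centring each set of assays gave 30.1% higher in the CeA by levels and 32.2% by differences. Relative reading, centring by differences and the runs that left out ZT9 animals in the time tests were added after seeing the data. Higher-numbered animals alone (5 pairs) gave 17.99% (8.63% and 9.35% by direction), 25 genes of which 24 were among the 72, and lower-numbered animals alone 70 genes, of which 58 were. The cause of these moves was not tested.

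Centring of set levels turned Gad1 to -0.47, Gabrg3 to -0.029, Grik3 to -0.64, Mbd1 to -0.13, Dmap1 to -0.0033 and Pdpk1 to 0.17. Rgs4 turned to 2.23 in higher-numbered animals, and Dctn1 to -4.89 with failed reactions at the highest C_T. In 6 of the 12 animals with both regions, Dctn1 was detected in the CeA alone. For ZT9 against ZT5, the 2 called genes became 1 without the samples that lacked a set. The count was 0 without the replicate block, without normalization, with set centring or in animals numbered from S166. It was 1 to 4 with a ZT9 animal left out. Leaving out replicate 11 gave 4. For ZT9 against ZT3 the count was 0 in every run. Fisher's exact test, with no replicate block, called 3 genes by detection, against 0.

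Precision is limited by 12 pairs, by failed reactions of weak genes and by ties among the strongest genes after normalization.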

Other observations

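Rgs4 encodes a regulator of G protein signals that is abundant in forebrain neurons. In lower-numbered animals its normalized C_T at ZT9 ran from 11.4 to 14.4 in 6 CeA samples (median 12.4) and from 13.5 to 15.2 in the 7 DVC samples of animals with both regions (median 15.2). The 3 lower-numbered animals that gave the DVC alone ran from 11.4 to 13.5, and with them the DVC range was 11.4 to 15.2 (median 13.9, 10 samples), which spans that of the CeA samples. In higher-numbered animals it ran from 14.7 to 16.6 in 5 CeA samples (median 16.4) and from 12.2 to 15.4 in 5 DVC samples (median 13.5). The CeA ranges of the 2 groups of animals did not overlap, the DVC ranges did, and Rgs4 was chosen for this description after its values were seen. Its 26 normalized values at ZT9 took 19 distinct values. Some lower-numbered CeA samples lay at 11.4, the strong end of the normalized scale, where quantile normalization leaves few steps. The sizes of these differences are therefore coarse. The labels give only the animals' numbers, so what else differed between the groups is not given in the sources used here.

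In replicate 12 the median non-normalized C_T of assay set 1 minus that of set 2 was 1.10 in the DVC sample, against -0.97 to 0.51 in the other DVC samples. The same sample gave 20.4 for Gabrd, 20.9 for Crhbp and 18.5 for Scn4b, in each case the lowest C_T of the 15 DVC samples or of those with a value.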
